A study of Rattus norvegicus with 6 samples.

Results

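The transforming growth factor beta (TGF-beta), bone morphogenetic protein (BMP) and activin families were described in cultured neonatal rat cardiomyocytes, the heart muscle cells of newborn rats. The members were all genes whose symbol names a TGF-beta ligand or receptor, a latent TGF-beta binding protein, a SMAD, a BMP or BMP receptor, an activin receptor, or an inhibin or activin subunit. Of the 22250 genes in the table, 47 were members. They were chosen by symbol, with earlier results of these data known. In 3 libraries the cells had been given 3Cl-HBA, a small molecule, at 40 µM for 48 h. In 3 others they had been given the solvent DMSO and were also sampled at 48 h. All cells were wild type, came from Sprague–Dawley rats at 1 day of age, were freed from the heart with collagenase, and grew in medium with 10% foetal bovine serum. The study set out to examine activation of hydroxycarboxylic acid receptor 1, Hcar1, a receptor for lactate. That receptor's own gene had 14, 10 and 5 reads in the 3Cl-HBA libraries, against 9, 7 and 5 reads in the DMSO libraries.

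Ligands of these families are made as precursors, and TGF-beta itself is secreted in a latent form held by its propeptide and by latent TGF-beta binding proteins in the matrix. The freed ligand brings type I and type II receptor kinases together, and the type I kinase phosphorylates receptor-regulated SMADs, which join Smad4 and enter the nucleus. TGF-beta and activin mainly use Smad2 and Smad3, while BMPs use Smad1, Smad5 and Smad9, and the inhibitory Smad6 and Smad7 hold both branches back. In the heart, BMP signalling takes part in forming the muscle and valves, and TGF-beta is best known for driving fibroblasts to make matrix.

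No member passed the test between 3Cl-HBA and DMSO cells. The cells of both groups made RNA for all 3 TGF-beta ligands, for a BMP set led by Bmp6 and Bmp4, for type I and type II receptors of every branch, and for 7 of the 8 SMADs at a clear level. The member closest to a difference was Bmpr2, the type II receptor for BMPs, at 33.0 ± 2.64 FPKM in 3Cl-HBA cells and 36.8 ± 1.88 FPKM in DMSO cells (SD, n = 3 each). Next was the sparsely read ligand Bmp5, at 1.06 ± 0.135 FPKM in 3Cl-HBA cells and 0.655 ± 0.190 FPKM in DMSO cells (SD, n = 3 each). FPKM, the deposited level, is the number of reads divided by the gene's length and by the library's total, so that levels of different genes can be compared.

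The test was edgeR's quasi-likelihood test on the deposited read counts, run on 13903 genes with enough reads, and a gene was called where the p adjusted over all of them (Benjamini-Hochberg) was under 0.05. Of the 47 members, 43 were tested and 0 were called, and of all tested genes 0% were called. At an unadjusted p under 0.05 stood 2 of the 43 members (4.65%), against 5.11% of all tested genes. DESeq2 and limma-voom also called 0 members, each with 2 at an unadjusted p under 0.05. In reads scaled to edgeR's effective library sizes, the 3Cl-HBA and DMSO libraries did not overlap in 6 of the 43 (14.0%), against 10.5% of all tested genes. These shares of members lie near the shares over all genes. The smallest adjusted p of any member was 0.959, and that of any gene was 0.845.

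Log2 fold changes here are 3Cl-HBA over DMSO. Among the tested members 23 lay above 0 and 20 below, with a median of 0.0062, against -0.00052 over all tested genes. They ranged from -0.73 (Inhbe) to 0.68 (Bmp5), both genes with few reads. The median size without regard to sign was 0.058 for members and 0.069 for all tested genes. The 95% interval of each gene measures only the spread between these libraries and was not adjusted for the number of genes. It lay inside a 2-fold change in either direction for 40 of the 43 members (93.0%, against 92.3% of all tested genes). It lay inside a 1.5-fold change for 35 (81.4%, against 80.9%). These shares of members were close to those of all tested genes. The median standard error (SE) of the log2 fold change was 0.072 for members and 0.095 for all tested genes.

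**Figure D1:**
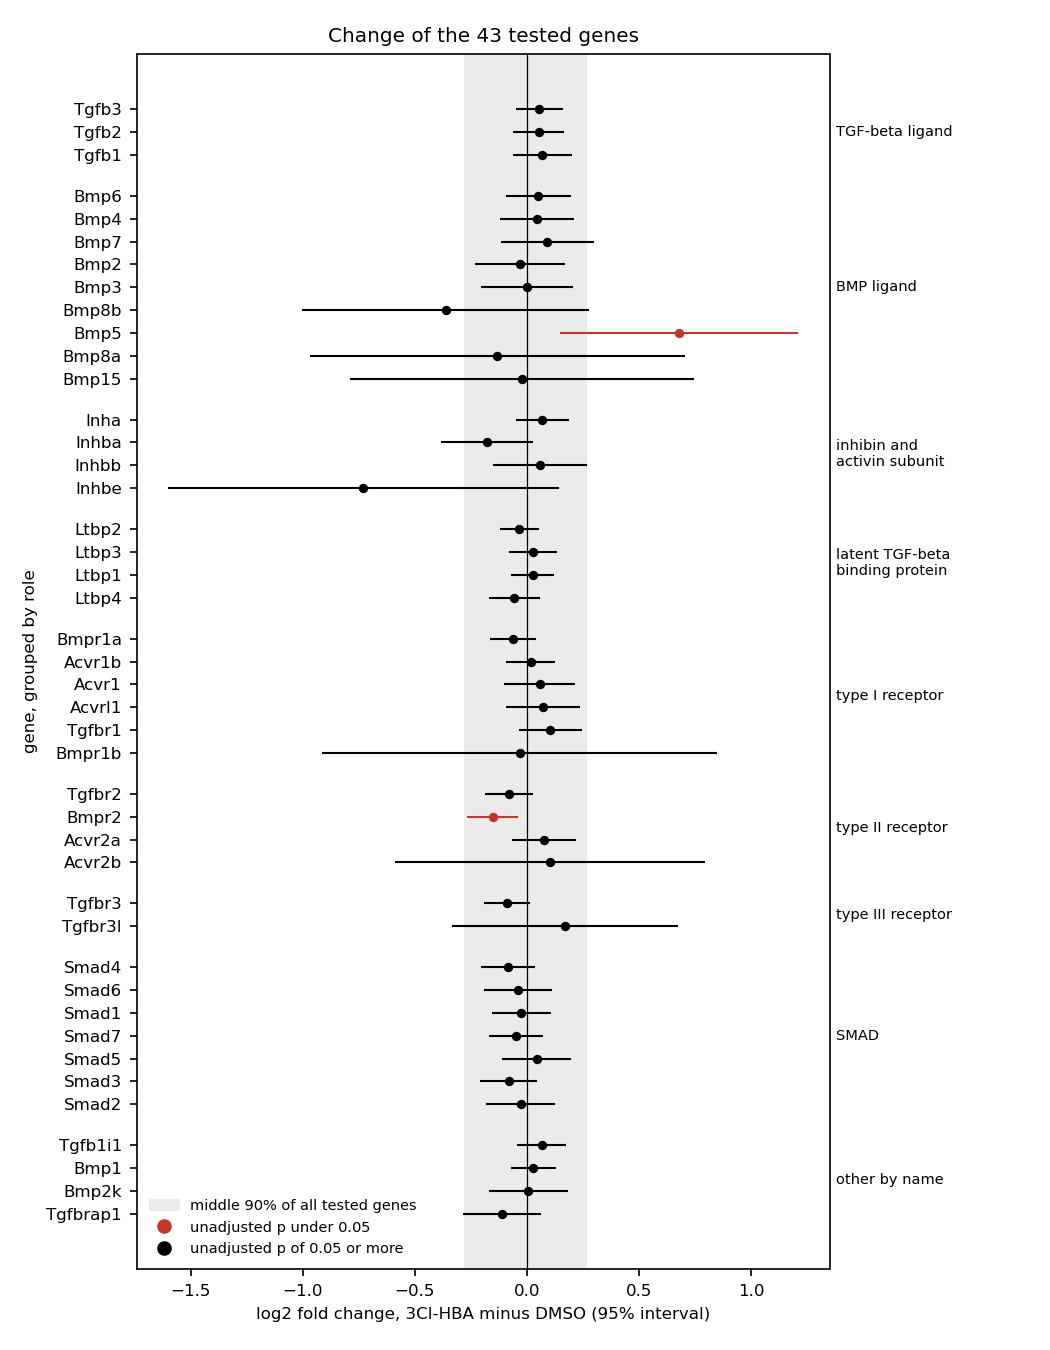
Log2 fold change (3Cl-HBA over DMSO) of each of the 43 tested members with its 95% interval, grouped by role, with the middle 90% of all tested genes (-0.28 to 0.26) shaded and members at an unadjusted p under 0.05 in red. Well-read members such as Tgfb3 and Ltbp2 have short intervals around 0, and the widest intervals belong to the sparsely read genes Bmpr1b, Inhbe, Bmp8a and Bmp15.

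Library totals were 14607337, 17202191 and 15732803 reads in genes for 3Cl-HBA and 13942979, 14499065 and 13240800 for DMSO, and 16460 to 16671 genes had a read. Markers of cardiac muscle summed to 9308 to 9509 FPKM in 3Cl-HBA libraries and 9186 to 9736 FPKM in DMSO libraries, so that the labelled cell type had its markers in every library. Fibroblast markers summed to 3887 to 3948 FPKM in 3Cl-HBA libraries and 3858 to 4037 FPKM in DMSO libraries. Smooth muscle markers summed to 1521 to 1549 FPKM in 3Cl-HBA libraries and 1485 to 1630 FPKM in DMSO libraries, and endothelial markers to 46.5 to 52.2 FPKM in 3Cl-HBA libraries and 47.7 to 55.4 FPKM in DMSO libraries. Leukocyte markers summed to 239.4 to 249.8 FPKM in 3Cl-HBA libraries and 225 to 247 FPKM in DMSO libraries. No gene of these 5 lists was called or at 0, and the ranges of the summed levels overlapped for each list. Of the 10 cardiac muscle markers 4 had a fold change above 0, with a median log2 fold change of -0.0043. An unadjusted p under 0.05 was found for 3 of them (30%), Ryr2, Myh7 and Myl2, all lower in 3Cl-HBA cells, against 5.11% of all tested genes. Of the 7 leukocyte markers 6 were above 0, and the macrophage gene Cd163 was lower at an unadjusted p under 0.05. The cultures thus held RNA of several cell types, and fewer cells of a type cannot be told apart from less RNA per cell. The part of cell makeup in the members' values was not tested. Nothing in the labels says that the 3 libraries of a group came from separate cultures or animals, so the p-values measure only the spread between these libraries.

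The 3 TGF-beta ligands were all well expressed, and none of them was called. Tgfb3 (chromosome 6, 109913757 to 109935533 in the table, whose genome build its sources do not name) had 65.2, 60.7 and 59.5 FPKM in 3Cl-HBA libraries, against 58.1, 59.6 and 61.0 FPKM in DMSO libraries. Tgfb2 (chromosome 13, 105039853 to 105141030) had 38.4, 40.5 and 37.5 FPKM in 3Cl-HBA libraries, against 38.5, 40.2 and 33.8 FPKM in DMSO libraries. Tgfb1 (chromosome 1, 82480195 to 82497199), the ligand most studied in cardiac fibrosis, had 32.7, 35.9 and 33.5 FPKM in 3Cl-HBA libraries, against 34.5, 30.1 and 33.1 FPKM in DMSO libraries. The groups overlapped for all 3. Their log2 fold changes were 0.055 ± 0.052 for Tgfb3, 0.051 ± 0.056 for Tgfb2 and 0.069 ± 0.066 for Tgfb1 (fold change ± SE, edgeR adjusted p 0.984 to 0.986). Without DMSO replicate 2 the value for Tgfb1 was 0.012, without 3Cl-HBA replicate 1 that for Tgfb3 was 0.019, and without DMSO replicate 3 that for Tgfb2 was -0.018. The order by level had Tgfb3 above every library of the others. The ranges of Tgfb2 and Tgfb1 overlapped across libraries, though Tgfb2 was higher than Tgfb1 within each of the 6.

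The makeup of the ligand RNA was likewise close between groups. Tgfb3 gave 45.9 ± 1.83% of the 3 ligands' summed FPKM in 3Cl-HBA cells and 46.0 ± 1.67% in DMSO cells (SD, n = 3 each). Tgfb2 gave 28.8 ± 0.699% in 3Cl-HBA cells and 28.9 ± 2.29% in DMSO cells, and Tgfb1 gave 25.3 ± 1.16% in 3Cl-HBA cells and 25.1 ± 1.72% in DMSO cells. Each of these differences was smaller than the SD within either group.

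The latent TGF-beta binding proteins, which tether the latent ligand to the matrix, included the most abundant member of all. Ltbp2, which unlike its relatives is not known to bind latent TGF-beta, had 129, 125 and 130.5 FPKM in 3Cl-HBA libraries, against 133, 128 and 133 FPKM in DMSO libraries. Its log2 fold change was -0.035 ± 0.043 (SE, edgeR adjusted p 0.986), and the groups overlapped. Ltbp3 averaged 43.1 ± 0.200 FPKM in 3Cl-HBA cells and 42.4 ± 3.5 FPKM in DMSO cells, and Ltbp1 41.1 ± 1.23 FPKM in 3Cl-HBA cells and 40.5 ± 0.421 FPKM in DMSO cells (SD, n = 3 each). Ltbp4 averaged 18.6 ± 0.455 FPKM in 3Cl-HBA cells and 19.4 ± 0.396 FPKM in DMSO cells. The 4 genes had log2 fold changes from -0.057 to 0.025, the narrowest range of any role with more than 3 tested members.

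**Figure D2:**
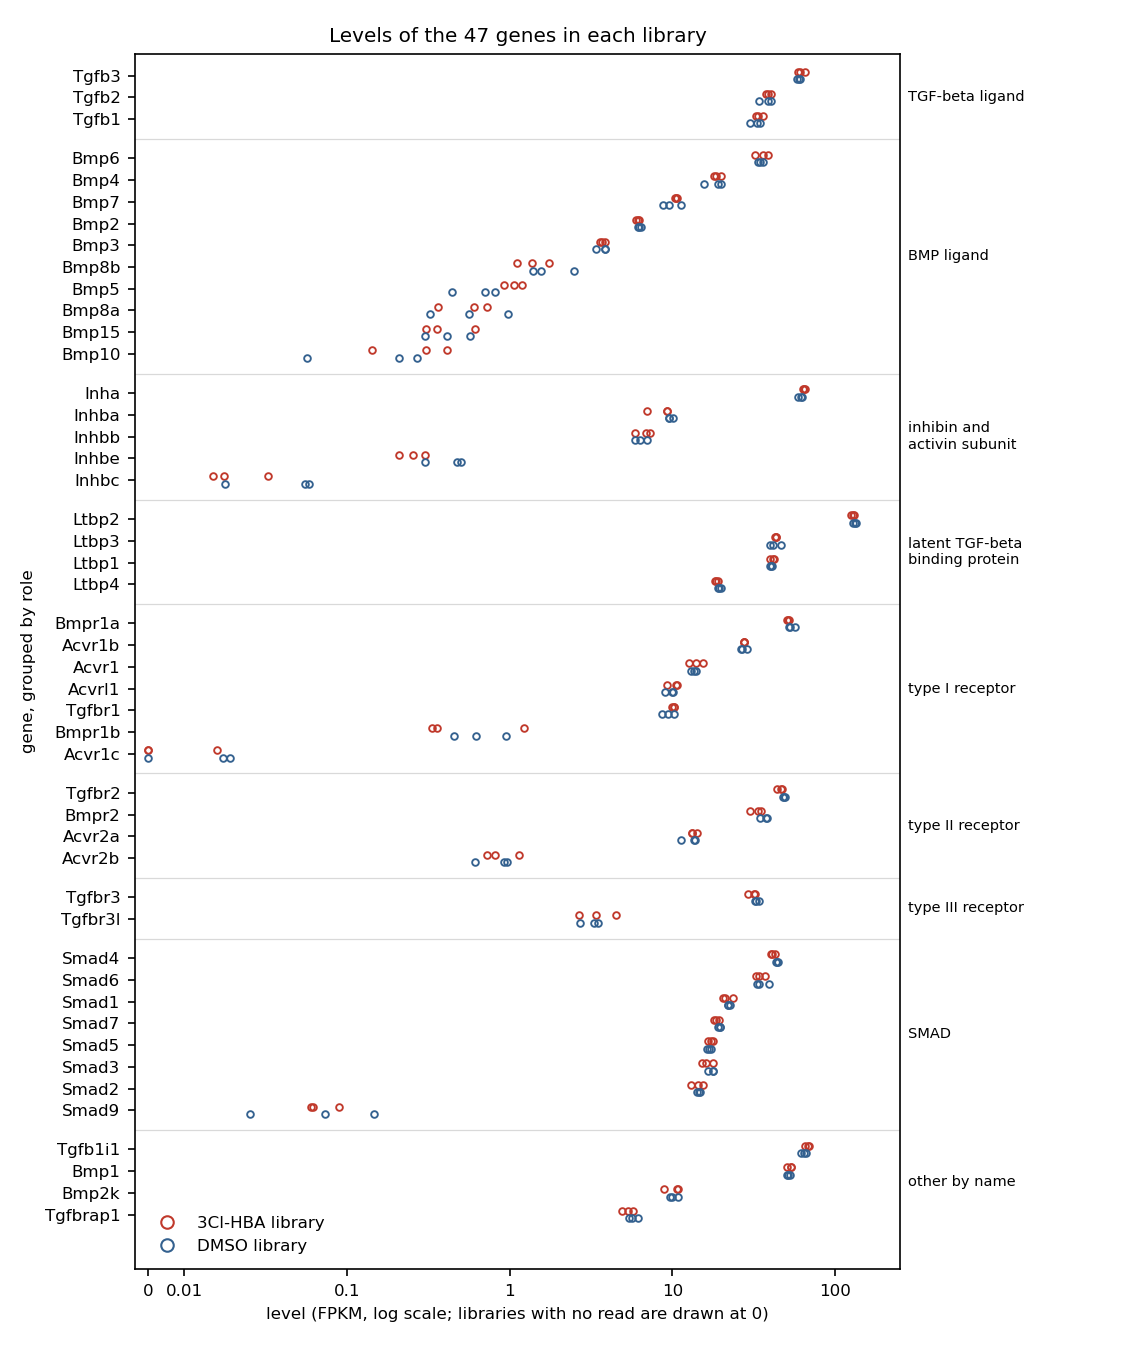
Level of every member in each library (FPKM, log scale), by role and from high to low within a role, with the 3Cl-HBA libraries drawn above the DMSO libraries and libraries with no read at 0. Levels are highest for Ltbp2 and lowest for Acvr1c, and the 3 libraries of each group lie close together except for sparsely read genes.

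BMP ligands spread over a far wider range of levels than the TGF-beta ligands. Bmp6, a ligand also known for its role in iron control, averaged 35.7 ± 3.26 FPKM in 3Cl-HBA cells and 34.6 ± 1.12 FPKM in DMSO cells (SD, n = 3 each). Bmp4, needed for mesoderm and the cardiac outflow tract, averaged 18.8 ± 0.940 FPKM in 3Cl-HBA cells and 18.2 ± 2.25 FPKM in DMSO cells. Bmp7 averaged 10.5 ± 0.178 FPKM in 3Cl-HBA cells and 9.89 ± 1.33 FPKM in DMSO cells. Bmp2, which induces cardiac fate in the embryo, and Bmp3, a BMP that opposes the others in bone, followed at lower levels. Bmp2 averaged 6.12 ± 0.129 FPKM in 3Cl-HBA cells and 6.26 ± 0.142 FPKM in DMSO cells, and Bmp3 averaged 3.71 ± 0.150 FPKM in 3Cl-HBA cells and 3.71 ± 0.261 FPKM in DMSO cells. These 5 genes made up 95.2 ± 0.878% of the BMP ligands' summed FPKM in 3Cl-HBA cells and 95.2 ± 0.663% in DMSO cells, and their order by level had no overlap between neighbours. Bmp6 alone gave 45.4 ± 2.87% in 3Cl-HBA cells and 45.3 ± 1.69% in DMSO cells.

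The remaining BMP ligands, Bmp8b, Bmp5, Bmp8a, Bmp15 and Bmp10, averaged from 0.233 to 1.61 FPKM over the 6 libraries, and each overlapped its neighbour in level. Within each of the 6 libraries, Bmp8b was above Bmp5 and Bmp15 was above Bmp10. Bmp10, a ligand of the embryonic and atrial heart muscle, had 8, 7 and 3 reads in 3Cl-HBA libraries, against 5, 4 and 1 reads in DMSO libraries, and was too sparse to test. Bmp15, known from the ovary, had 27, 16 and 17 reads in 3Cl-HBA libraries, against 24, 18 and 12 reads in DMSO libraries. Bmp8b had the lowest fold change of the BMP ligands, at -0.36 ± 0.32 on the log2 scale (SE, edgeR adjusted p 0.984), with overlapping groups.

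Bmp5 (chromosome 8, 82878941 to 82950273 in the table), a BMP first known from skeletal growth and also made in the developing heart, was the only BMP ligand with an unadjusted p under 0.05. It had 1.19, 0.917 and 1.06 FPKM in 3Cl-HBA libraries, against 0.710, 0.811 and 0.444 FPKM in DMSO libraries. These levels rest on 56, 51 and 54 reads in 3Cl-HBA libraries, against 32, 38 and 19 reads in DMSO libraries. All 3 of the 3Cl-HBA libraries were above all 3 of the DMSO libraries. The log2 fold change was 0.68 ± 0.26 (SE), a 1.60-fold level with a 95% interval from 1.11 to 2.31 and an edgeR adjusted p of 0.959. Leaving out 1 library at a time gave log2 fold changes from 0.47 (without DMSO replicate 3) to 0.86.

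Among the inhibin and activin subunits, the alpha subunit gene Inha was far above the beta subunits whose pairs form the activins. Inha had 63.7, 64.2 and 64.8 FPKM in 3Cl-HBA libraries, against 61.8, 59.5 and 62.6 FPKM in DMSO libraries. The groups did not overlap, yet the log2 fold change was 0.069 ± 0.058 (SE, edgeR adjusted p 0.984). Inha gave 80.6 ± 1.12% of the subunits' summed FPKM in 3Cl-HBA cells and 78.7 ± 0.295% in DMSO cells (SD, n = 3 each).

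Inhba, whose product forms activin A, had 6.97, 9.29 and 9.21 FPKM in 3Cl-HBA libraries, against 9.49, 10.0 and 9.46 FPKM in DMSO libraries. All 3 of the 3Cl-HBA libraries were below the DMSO libraries, and the first of them was well below the rest. The log2 fold change of -0.18 ± 0.10 (SE, edgeR adjusted p 0.975) was -0.057 without 3Cl-HBA replicate 1. Inhbe, a subunit made mainly in the liver, also had non-overlapping groups, with 12, 12 and 9 reads in 3Cl-HBA libraries, against 18, 12 and 18 reads in DMSO libraries. In reads alone the groups touch at 12, and they separate only per total, at 0.302, 0.256 and 0.210 FPKM in 3Cl-HBA libraries, against 0.474, 0.304 and 0.499 FPKM in DMSO libraries. Its log2 fold change was -0.73 ± 0.43 (SE, edgeR adjusted p 0.975).

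Inhbb, the subunit of activin B, averaged 6.69 ± 0.682 FPKM in 3Cl-HBA cells and 6.43 ± 0.553 FPKM in DMSO cells (SD, n = 3 each). Its range overlapped that of Inhba, though Inhba was higher within each of the 6 libraries. Inhbc, another liver subunit, had 1, 1 and 2 reads in 3Cl-HBA libraries, against 3, 1 and 3 reads in DMSO libraries, and was not tested.

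**Figure D3:**
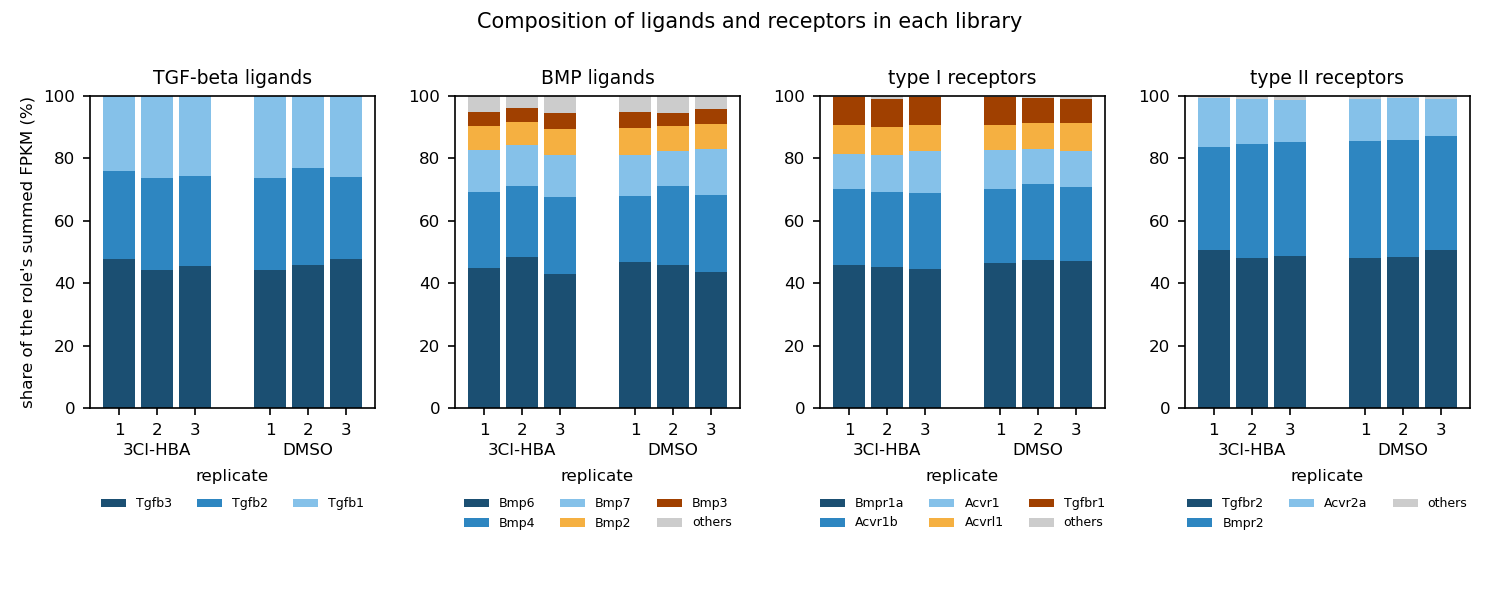
Stacked bars, 1 for each library, of the share (percent) of the summed FPKM held by each gene of the TGF-beta ligands, BMP ligands, type I receptors and type II receptors, with 3Cl-HBA libraries left of DMSO libraries. Tgfb3 holds a mean of 45.9% of the TGF-beta ligand RNA in 3Cl-HBA libraries and 46.0% in DMSO libraries, and the 2 leading genes of each panel are the same in all 6 libraries.

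Type I receptors are the kinases that phosphorylate SMADs, and the BMP receptor Bmpr1a led them. Bmpr1a had 51.4, 52.3 and 50.4 FPKM in 3Cl-HBA libraries, against 52.2, 56.3 and 52.6 FPKM in DMSO libraries. Acvr1b, the activin receptor also called ALK4, had 27.4, 27.7 and 27.6 FPKM in 3Cl-HBA libraries, against 26.8, 28.6 and 26.4 FPKM in DMSO libraries. Both overlapped between groups, with log2 fold changes of -0.061 ± 0.051 and 0.017 ± 0.054 (SE, edgeR adjusted p 0.984 and 0.997). Bmpr1a gave 45.1 ± 0.589% of the type I receptors' summed FPKM in 3Cl-HBA cells and 47.0 ± 0.580% in DMSO cells (SD, n = 3 each). This share of 45.7, 45.2 and 44.5% in 3Cl-HBA libraries lay below the 46.4, 47.5 and 47.1% of the DMSO libraries. The separation is given as a description, with no test, and was not particular to Bmpr1a. Within their own roles the shares of Acvr2a and Inha separated upward and that of Inhba downward, while others, such as that of Tgfb3, overlapped.

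Tgfbr1, the type I receptor of TGF-beta, had 9.92, 10.2 and 10.2 FPKM in 3Cl-HBA libraries, against 10.2, 9.43 and 8.60 FPKM in DMSO libraries. Its log2 fold change of 0.10 ± 0.069 (SE, edgeR adjusted p 0.984) was the highest of the type I receptors, and the groups overlapped. Acvr1, a BMP receptor, averaged 14.0 ± 1.32 FPKM in 3Cl-HBA cells and 13.5 ± 0.524 FPKM in DMSO cells, and Acvrl1, the receptor of Bmp9 and Bmp10 in vessels, 10.1 ± 0.738 FPKM in 3Cl-HBA cells and 9.67 ± 0.604 FPKM in DMSO cells (SD, n = 3 each). Acvrl1 and Tgfbr1 overlapped in level. Bmpr1b, which acts in cartilage and ovary, had 10, 40 and 10 reads in 3Cl-HBA libraries, against 12, 17 and 24 reads in DMSO libraries. Acvr1c, a receptor of nodal and of some growth and differentiation factors, had 0, 0 and 1 reads in 3Cl-HBA libraries, against 0, 1 and 1 reads in DMSO libraries, below the 3 reads that a count of 0 allows, and it was not tested.

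Type II receptors bind the ligand and activate the type I kinase. Tgfbr2 (chromosome 8, 124312754 to 124399494), which binds TGF-beta, was the most abundant, at 46.4, 43.9 and 47.3 FPKM in 3Cl-HBA libraries, against 49.1, 48.4 and 48.0 FPKM in DMSO libraries. All 3 of the 3Cl-HBA libraries were below all 3 of the DMSO libraries. Its log2 fold change was -0.079 ± 0.053 (SE, edgeR adjusted p 0.984), with a 95% interval from -0.19 to 0.027. Acvr2a, shared by activins and BMPs, averaged 13.6 ± 0.590 FPKM in 3Cl-HBA cells and 12.9 ± 1.39 FPKM in DMSO cells (SD, n = 3 each). Its near relative Acvr2b averaged 0.891 ± 0.216 FPKM in 3Cl-HBA cells and 0.835 ± 0.190 FPKM in DMSO cells, so that nearly all RNA for activin type II receptors came from Acvr2a.

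Bmpr2 (chromosome 9, 66568074 to 66676494, plus strand), the main BMP type II receptor, whose mutations cause inherited pulmonary arterial hypertension in humans, had the smallest p of all members. It had 30.1, 33.7 and 35.2 FPKM in 3Cl-HBA libraries, against 38.2, 37.6 and 34.7 FPKM in DMSO libraries. The first 3Cl-HBA library was the lowest, and the groups overlapped, as the last 3Cl-HBA library was above the last DMSO library. The log2 fold change was -0.15 ± 0.057 (SE), a 0.899-fold level with a 95% interval from 0.830 to 0.974 and an edgeR adjusted p of 0.959. Without 3Cl-HBA replicate 1 it was -0.089, and without 3Cl-HBA replicate 3 it was -0.21. Within the span of Bmpr2 the table also lists a 483-base gene on the opposite strand, AABR07067829.1, with no role known here. It had 80.8, 42.4 and 46.5 FPKM in 3Cl-HBA libraries, against 64.0, 67.3 and 45.7 FPKM in DMSO libraries. The sources used here do not say whether the counting used strand, and whether this gene overlaps an exon of Bmpr2 was not checked. The part of its reads in the Bmpr2 values was not tested.

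**Figure D4:**
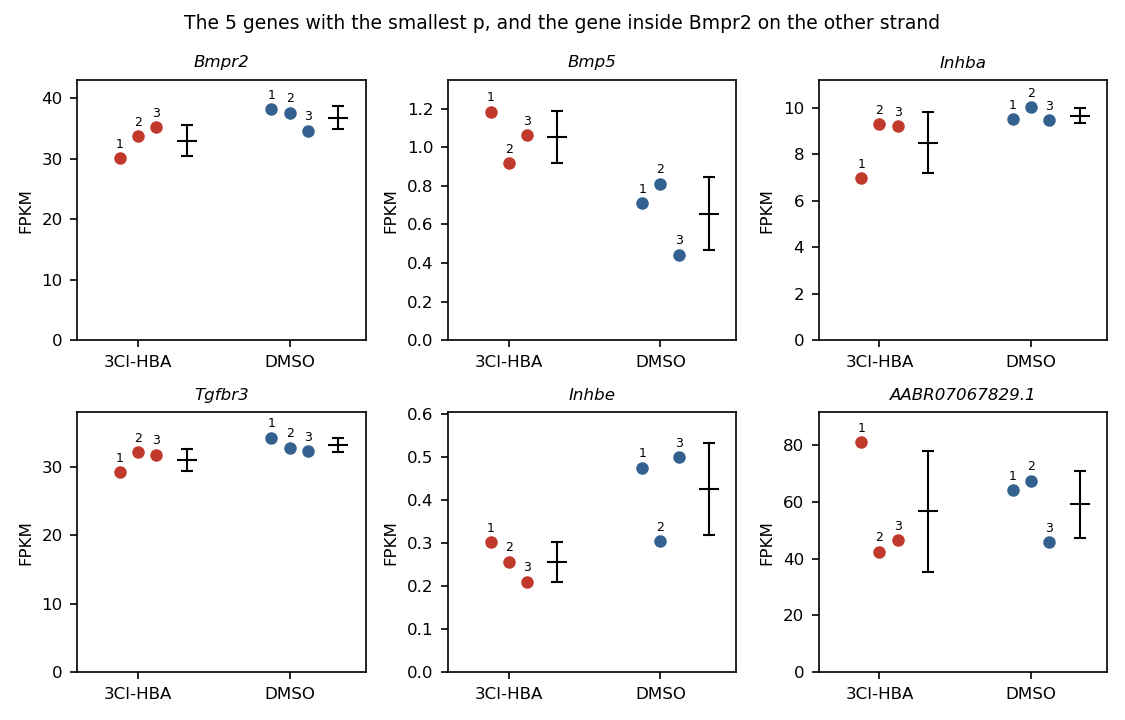
FPKM in each library of the 5 tested members with the smallest unadjusted p, and of AABR07067829.1, the gene inside Bmpr2 on the other strand, with 3Cl-HBA left of DMSO. Points are libraries with their replicate number, and bars are the mean and SD (n = 3 each). Bmp5 is separated upward, Inhba, Tgfbr3 and Inhbe downward, and Bmpr2 and AABR07067829.1 overlap between groups.

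Type III receptors have no kinase and present ligand to the others. Tgfbr3 (betaglycan), which presents TGF-beta and inhibin, had 29.2, 32.1 and 31.8 FPKM in 3Cl-HBA libraries, against 34.2, 32.8 and 32.3 FPKM in DMSO libraries. The groups did not overlap, though the nearest values of each were close, and the log2 fold change was -0.091 ± 0.051 (SE, edgeR adjusted p 0.975). It was -0.045 without 3Cl-HBA replicate 1. Tgfbr3l, a shorter relative, averaged 3.53 ± 0.909 FPKM in 3Cl-HBA cells and 3.15 ± 0.401 FPKM in DMSO cells (SD, n = 3 each). Bmpr2, Tgfbr3 and Inhba shared the feature that the first 3Cl-HBA library held the lowest FPKM of the 6. It was not particular to them, as Acvr1, Bmp2k and Tgfbr3l had it too, with log2 fold changes above 0.

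The SMADs carry the signal to the nucleus, and Smad4, the partner common to both branches, was the most abundant. Smad4 had 41.04, 43.0 and 40.2 FPKM in 3Cl-HBA libraries, against 44.1, 43.2 and 44.8 FPKM in DMSO libraries. The inhibitory Smad6, which acts mainly on BMP signals, had 37.0, 34.0 and 32.6 FPKM in 3Cl-HBA libraries, against 39.3, 34.2 and 33.0 FPKM in DMSO libraries. Smad7, the inhibitor of both branches, had 19.5, 18.1 and 18.5 FPKM in 3Cl-HBA libraries, against 18.9, 19.7 and 19.5 FPKM in DMSO libraries. The FPKM of Smad4 in the DMSO libraries lay above that in all 3Cl-HBA libraries, but the nearest values of the groups were so close that they overlapped once scaled to effective library sizes. Smad6 and Smad7 overlapped. Log2 fold changes were -0.086 ± 0.059 for Smad4, -0.038 ± 0.075 for Smad6 and -0.050 ± 0.060 for Smad7 (SE, edgeR adjusted p 0.984 to 0.992).

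Receptor-regulated SMADs of both branches were present at similar levels. Smad1 averaged 21.8 ± 1.63 FPKM in 3Cl-HBA cells and 22.1 ± 0.464 FPKM in DMSO cells, and Smad5 17.3 ± 0.653 FPKM in 3Cl-HBA cells and 16.8 ± 0.525 FPKM in DMSO cells (SD, n = 3 each). On the TGF-beta and activin side, Smad3 averaged 16.4 ± 1.37 FPKM in 3Cl-HBA cells and 17.3 ± 0.712 FPKM in DMSO cells, and Smad2 14.2 ± 1.20 FPKM in 3Cl-HBA cells and 14.5 ± 0.272 FPKM in DMSO cells. Smad5 overlapped Smad3 in level, and Smad3 overlapped Smad2, though Smad3 was above Smad2 within each of the 6 libraries. Smad9 had 5, 6 and 8 reads in 3Cl-HBA libraries, against 2, 6 and 11 reads in DMSO libraries, and was not tested. The BMP-side SMADs gave 56.2 ± 1.35% of the receptor-regulated SMADs' summed FPKM in 3Cl-HBA cells and 55.1 ± 0.590% in DMSO cells. Of the 7 tested SMADs, 6 had a log2 fold change below 0 and Smad5 was above it, with a range from -0.086 to 0.044 and none called.

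The choice by symbol also took in 4 genes that are named for the families but act elsewhere in them. Tgfb1i1 (Hic-5), a focal adhesion protein induced by TGF-beta, had 64.9, 67.8 and 68.9 FPKM in 3Cl-HBA libraries, against 64.3, 62.1 and 66.6 FPKM in DMSO libraries. Bmp1 is a protease that trims procollagen and frees latent TGF-beta, and it averaged 52.5 ± 1.62 FPKM in 3Cl-HBA cells and 51.5 ± 1.28 FPKM in DMSO cells (SD, n = 3 each). Bmp2k, a kinase induced by Bmp2 and active in endocytosis, averaged 10.2 ± 1.08 FPKM in 3Cl-HBA cells and 10.1 ± 0.593 FPKM in DMSO cells. Tgfbrap1, a protein of endosomal sorting that binds TGF-beta receptors, had 5.31, 5.72 and 4.90 FPKM in 3Cl-HBA libraries, against 5.41, 6.17 and 5.65 FPKM in DMSO libraries. All 4 overlapped between groups.

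Summed by role, the levels stayed close as well. The TGF-beta ligands summed to 134.7 ± 3.61 FPKM in 3Cl-HBA cells and 129.6 ± 1.58 FPKM in DMSO cells, and the BMP ligands to 78.5 ± 2.96 FPKM in 3Cl-HBA cells and 76.3 ± 2.53 FPKM in DMSO cells (SD, n = 3 each). Type I receptors summed to 113.8 ± 1.80 FPKM in 3Cl-HBA cells and 114.2 ± 3.68 FPKM in DMSO cells, and type II receptors to 93.3 ± 3.10 FPKM in 3Cl-HBA cells and 99.0 ± 3.72 FPKM in DMSO cells. The SMADs summed to 164.3 ± 5.74 FPKM in 3Cl-HBA cells and 169.7 ± 3.36 FPKM in DMSO cells. No test was run on these sums, which are given as a description.

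The level and the place of the members in the genome are given as a description. The mean over the 6 libraries was at least 1 FPKM for 37 of the 47 (78.7%), against 56.3% of all genes in the table, and 16 members reached at least 30 FPKM. They lay on 18 chromosomes with at most 5 on any of them, and some were close neighbours in the table, such as Inhbe and Inhbc on chromosome 7, and Acvrl1 and Acvr1b on the same chromosome. Their lengths in the table ran from 894 to 6710 bases, with a median of 3119.

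Promoter windows from RefSeq (build GRCr8, the 250 bases before the transcription start) were found for 40 of the 47 member genes, in 44 windows. Their median GC content was 63.2%, against 51.2% over all 33469 windows. The windows of Bmpr2 and Bmp5, the members with the smallest p, and of Smad7, a textbook target of the pathway's own SMADs, are shown to set the sequences beside the values above. They lie at chr9:68686566-68686815, chr8:85397379-85397628 and chr18:71263258-71263507, all on the plus strand, and read 5′ to 3′. Capitals mark GGCGCC, a GC-rich element that BMP-side SMADs bind.
Bmpr2: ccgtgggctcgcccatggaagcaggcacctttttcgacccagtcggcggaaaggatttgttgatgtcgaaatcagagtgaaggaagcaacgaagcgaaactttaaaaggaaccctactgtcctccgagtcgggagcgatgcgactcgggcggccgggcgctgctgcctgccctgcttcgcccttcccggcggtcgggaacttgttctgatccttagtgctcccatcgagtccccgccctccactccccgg
Bmp5: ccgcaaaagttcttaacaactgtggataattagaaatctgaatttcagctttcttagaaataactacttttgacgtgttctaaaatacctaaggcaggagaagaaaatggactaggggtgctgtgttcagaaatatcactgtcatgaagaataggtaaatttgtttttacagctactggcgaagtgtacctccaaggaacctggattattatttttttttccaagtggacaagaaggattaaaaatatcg
Smad7: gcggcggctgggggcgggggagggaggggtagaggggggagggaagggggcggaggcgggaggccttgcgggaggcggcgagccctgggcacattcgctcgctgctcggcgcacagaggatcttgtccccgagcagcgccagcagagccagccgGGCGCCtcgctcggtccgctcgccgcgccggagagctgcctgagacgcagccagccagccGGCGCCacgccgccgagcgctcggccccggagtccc
The Bmp5 window is AT-rich, with 35.2% GC, against 61.2% for Bmpr2 and 78.0% for Smad7, and only the Smad7 window holds a match, with 2. The letters GGCGCC, searched on both strands, were in 10 of the 44 member windows (22.7%), against 8.69% of all windows. The basic SMAD box CAGAC, on either strand, was in 12 (27.3%), against 42.9%, and its palindrome GTCTAGAC in 0, against 0.173%. The TATA box letters TATAAA were in 3 (6.82%), against 12.9%. The palindrome GTCTAGAC does not contain CAGAC but shares part of its letters. Such matches describe letters in a window and are not sites shown to be bound. The shares over all windows were not matched for the higher median GC content of the member windows. The part of GC content in these differences was not tested.

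Other genes of the pathway, in 7 lists by role, likewise held no called gene. Of 119 listed genes 100 were tested and 0 were called, with 53 log2 fold changes above 0 and a median of 0.0064. At an unadjusted p under 0.05 stood 6 (6.0%), with 4 higher (Fst, Junb, Id2 and Id4) and 2 lower (Itgav and Furin) in 3Cl-HBA cells, against 5.11% of all tested genes. DESeq2 and limma-voom also called 0, with 4 and 5 at an unadjusted p under 0.05.

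Among extracellular antagonists, 0 of 15 tested genes were called and 7 had a fold change above 0. The leading genes were the small proteoglycans Bgn and Dcn, which bind TGF-beta in the matrix. Bgn averaged 845 ± 38.8 FPKM in 3Cl-HBA cells and 847 ± 42.7 FPKM in DMSO cells, and Dcn 293.9 ± 12.2 FPKM in 3Cl-HBA cells and 282 ± 18.4 FPKM in DMSO cells (SD, n = 3 each). Fst (follistatin), which binds and blocks activins, had 52.5, 52.0 and 48.7 FPKM in 3Cl-HBA libraries, against 42.9, 48.8 and 45.3 FPKM in DMSO libraries. The last 3Cl-HBA library was just below the second DMSO library in FPKM, and the groups separated only once scaled to effective library sizes. Its log2 fold change was 0.16 ± 0.071 (SE, edgeR adjusted p 0.959).

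Of the genes that activate latent ligand, 0 of 15 were called and 6 were above 0. Itgb1, an integrin chain, averaged 772 ± 11.7 FPKM in 3Cl-HBA cells and 769 ± 34.0 FPKM in DMSO cells, and the protease Mmp2 averaged 505 ± 6.41 FPKM in 3Cl-HBA cells and 507 ± 14.8 FPKM in DMSO cells (SD, n = 3 each). Itgav, the integrin chain whose pairs release latent TGF-beta, had 62.4, 69.4 and 69.9 FPKM in 3Cl-HBA libraries, against 73.6, 74.8 and 72.5 FPKM in DMSO libraries. The groups did not overlap, and the first 3Cl-HBA library was the lowest. The log2 fold change was -0.13 ± 0.051 (SE, edgeR adjusted p 0.959), and it was -0.075 without 3Cl-HBA replicate 1. Furin, the protease that cuts the precursors, had 76.1, 79.2 and 75.3 FPKM in 3Cl-HBA libraries, against 84.5, 77.2 and 85.9 FPKM in DMSO libraries, with overlapping groups and a log2 fold change of -0.10 ± 0.048 (SE, edgeR adjusted p 0.959).

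Transcriptional targets of the pathway were also listed, though signalling activity itself was not measured. Some TGF-beta targets, such as Col1a1 and Acta2, are also among the fibroblast or smooth muscle markers. The part of cell makeup in their values was not tested. Of the TGF-beta targets 0 of 22 were called, 12 had a fold change above 0, and their median was 0.016 on the log2 scale. The collagen gene Col1a1 averaged 1745 ± 14.4 FPKM in 3Cl-HBA cells and 1795 ± 71.7 FPKM in DMSO cells, and the fibronectin gene Fn1 averaged 753 ± 39.8 FPKM in 3Cl-HBA cells and 767 ± 26.5 FPKM in DMSO cells (SD, n = 3 each). Junb, an immediate target that growth factors in general also induce, had 49.4, 47.9 and 50.7 FPKM in 3Cl-HBA libraries, against 43.7, 44.3 and 46.9 FPKM in DMSO libraries. The groups did not overlap, and the log2 fold change was 0.14 ± 0.060 (SE, edgeR adjusted p 0.959).

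Of the BMP targets 0 of 14 were called, 8 lay above 0, and their median was 0.017 on the log2 scale. Tbx20, a cardiac transcription factor, averaged 79.9 ± 8.11 FPKM in 3Cl-HBA cells and 83.5 ± 2.58 FPKM in DMSO cells, and Hamp, the hormone hepcidin induced by BMPs, averaged 78.7 ± 11.2 FPKM in 3Cl-HBA cells and 78.3 ± 9.96 FPKM in DMSO cells (SD, n = 3 each). Id2, an inhibitor of differentiation and a direct BMP target, had 28.1, 24.9 and 26.7 FPKM in 3Cl-HBA libraries, against 24.6, 22.2 and 23.8 FPKM in DMSO libraries. Its groups did not overlap, with a log2 fold change of 0.17 ± 0.080 (SE, edgeR adjusted p 0.959). Id4, of the same family, had 11.5, 10.9 and 9.19 FPKM in 3Cl-HBA libraries, against 8.73, 9.76 and 8.36 FPKM in DMSO libraries. The groups overlapped for Id4, and the log2 fold change was 0.23 ± 0.11 (SE, edgeR adjusted p 0.959). The other two genes of the family, Id1 and Id3, had log2 fold changes of -0.0087 and -0.015.

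The other 3 lists held no gene with an unadjusted p under 0.05. Of other ligands of the superfamily 4 of 7 were above 0, led in level by Gdf15, a stress-induced factor, at 27.4 ± 2.03 FPKM in 3Cl-HBA cells and 26.1 ± 1.20 FPKM in DMSO cells. Of co-receptors 5 of 7 were above 0, led by Eng (endoglin) at 135.6 ± 3.57 FPKM in 3Cl-HBA cells and 135.5 ± 9.95 FPKM in DMSO cells. Of SMAD regulators 11 of 20 were above 0, led by Fkbp1a, which holds type I receptors inactive, at 260.5 ± 9.68 FPKM in 3Cl-HBA cells and 259 ± 17.6 FPKM in DMSO cells (SD, n = 3 each). None of the genes in these lists was called.

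**Figure D5:**
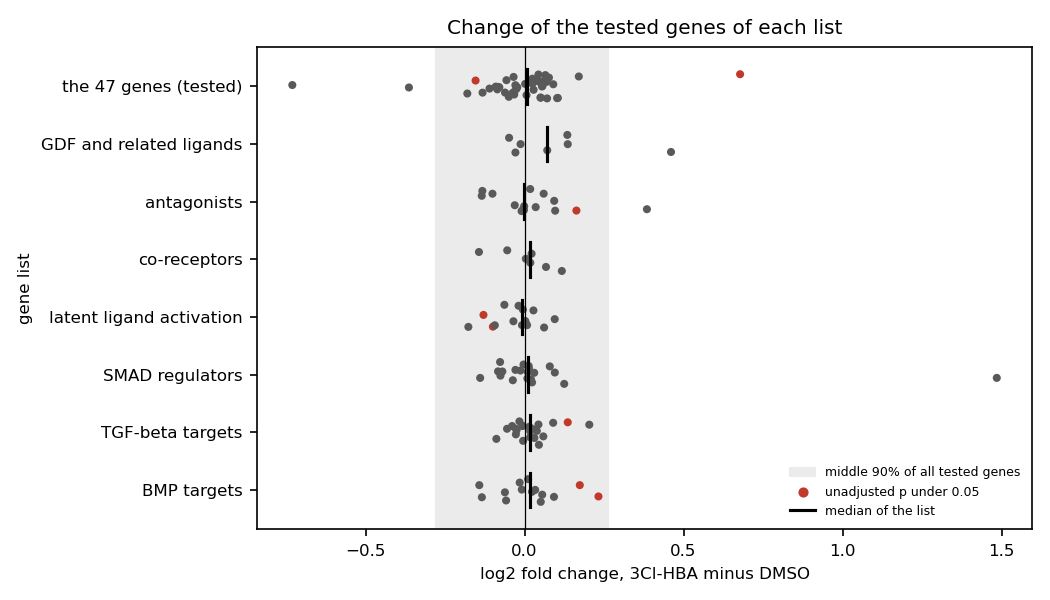
Log2 fold changes (3Cl-HBA over DMSO) of the tested genes of the members and of each pathway list, with the median of each list and the middle 90% of all tested genes marked and genes at an unadjusted p under 0.05 in red. The medians of the 7 lists lie between -0.0080 and 0.071. The point far above the rest of the SMAD regulators is the row named Map3k7, and which transcript that row counts is uncertain.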

How the data were processed

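RNA was measured in 6 libraries of neonatal rat cardiomyocytes, 3 with 3Cl-HBA and 3 with DMSO, made with a ribosomal RNA removal kit and read on an Illumina HiSeq instrument, per the labels' protocols. The authors deposited a read count and an FPKM value per gene and library. The deposited FPKM equals the count divided by gene length and library total (largest relative gap 8.2e-08). Per the labels, the authors used DESeq2. No aligner, counter, strand setting or genome build is given in the sources used here. Columns were matched to samples through the treatment text and the replicate number.

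Counts were tested with edgeR 4.0.16 in R 4.3.3 (TMM, filterByExpr with a minimum count of 10, robust glmQLFit and glmQLFTest, Benjamini-Hochberg over 13903 genes), first tested on simulated data. TMM factors were 0.995 to 1.01, and the median biological coefficient of variation was 0.0647. SE is the size of the log2 fold change over the square root of F. Intervals cover the spread between libraries. Pairs among the 6 libraries, taken within and between groups, differed beyond sampling noise (chi-square per degree of freedom 2.74 to 4.93).

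The members and lists were chosen with earlier results of these data known. Of the lists, 3 genes (Itgb5, Col1a2, Pecam1) were not analysed here. Members given per library were the 2 most abundant of each role and the 5 with the smallest p. For this choice TGF-beta and BMP ligands counted as the same role. So did latent TGF-beta binding proteins and genes such as Tgfb1i1, and type III receptors and Tgfbrap1. Of each list, the 2 most abundant genes and up to 3 at an unadjusted p under 0.05 were chosen. Tgfb1, Tgfbr1 and Smad7, further members with sparse reads, and the Ltbp, Bmp and Smad genes given as means were added after values were seen, to account for every member. Alternatives were library totals, DESeq2 1.42.0, limma-voom (limma 3.58.1), no low-count filter, a replicate block, a gene length correction and leaving out each library. Same-numbered libraries did not deviate together (correlations -0.0692 to -0.0438), so the numbers were not taken as pairs.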

Additional observations from a re-analysis of the deposited data

How the results depend on the processing

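The count of called members was 0 under all 12 alternatives, and 1 to 4 members had an unadjusted p under 0.05. The lowest adjusted p of a member was 0.349, reached without DMSO replicate 3. The replicate block also gave 0 called members and 0 called genes, with a median log2 fold change of the tested members of 0.0031. Over all genes, 2 were called with no low-count filter, and 0 (without DMSO replicate 1 or 3Cl-HBA replicate 1) to 8 (without DMSO replicate 3) when a library was left out. Of the pathway lists, 0 to 1 genes were called when a library was left out, the 1 being Map3k7 without 3Cl-HBA replicate 2. When a library was left out, the members' median log2 fold change ran from -0.028 (without DMSO replicate 2) to 0.019, and was also below 0 without 3Cl-HBA replicate 3 (-0.0053); it was 0.023 with the gene length trend removed. Leaving out a library moved Tgfb2 from -0.018 to 0.10, Acvr1b from -0.0062 to 0.050 and Smad6 from -0.088 to 0.040. The cause was not tested. Of 312 values of 26 named genes, 308 kept their direction and side of the threshold. As none of these genes was called in the main fit, that side could change only where an alternative called a gene. Other genes given above, such as Bmp3 and Bmp2k, were not counted.

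With 3 libraries a group, the 95% interval reached past a 1.5-fold change for 8 of the 43 tested members, and 4 members could not be tested at this depth.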

Other observations

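Map3k7, the gene of the TAK1 kinase that TGF-beta and BMP receptors activate outside the SMAD route, stood out among the SMAD regulators after its values were seen. It had 2.16, 0.319 and 2.49 FPKM in 3Cl-HBA libraries, against 0.634, 0.543 and 0.577 FPKM in DMSO libraries. These rest on 132, 23 and 164 reads in 3Cl-HBA libraries, against 37, 33 and 32 reads in DMSO libraries. The first and last 3Cl-HBA libraries were far above the DMSO libraries, and the middle one was below them. On the log2 scale the difference was 1.49 with an SE of 0.85 and a 95% interval from -0.83 to 3.8, at an edgeR adjusted p of 0.984. Without 3Cl-HBA replicate 2 it was 1.99, with an edgeR adjusted p of 3.41e-08. The table places this row on chromosome 9, whereas RefSeq (GRCr8) has Map3k7 on chromosome 5, so which transcript the row counts is uncertain. All 47 members, by contrast, lie on the chromosome that RefSeq gives for their symbol.

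The table's own annotation puts 31 of the members among the 88 genes of the KEGG TGF-beta signaling pathway. Of these 88 genes 78 were tested and 0 were called by edgeR, and 6 (7.69%: Bmpr2, Fst, Mapk3, Tfdp1, Id2 and Id4) had an unadjusted p under 0.05, against 5.11% of all tested genes.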
